A study of Mus musculus with 6 samples.

Results

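The cornified envelope genes of the epidermal differentiation complex were followed in mouse skin after chronic restraint stress. The set held every protein-coding gene whose symbol begins with Lce or Sprr, together with Ivl, Lor, Flg, Flg2, Hrnr, Rptn, Crnn and Crct1. These were 44 of the 54146 Ensembl gene IDs in the deposited files, and all 44 lie on chromosome 3. They fall into 14 Lce1 genes, 6 Lce3 genes, Lce6a, 2 Sprr1 genes, 11 Sprr2 genes, Sprr3, Sprr4, 5 S100-fused type genes (Flg, Flg2, Hrnr, Rptn and Crnn) and the single genes Ivl, Lor and Crct1. Sprr2j-ps was kept because GENCODE M21 types it as protein-coding, whereas RefSeq holds it as a transcribed pseudogene. Sprr2g and Sprr2c-ps were left out by their gene type.

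Keratinocytes that leave the basal layer flatten, lose their nuclei and replace the plasma membrane with the cornified envelope, a shell of proteins joined by transglutaminases. Involucrin is laid down early as a scaffold. Loricrin becomes the main mass, small proline-rich (SPRR) proteins bridge it, and late cornified envelope (LCE) proteins are added last. Filaggrin and its relatives carry an S100 domain fused to long repeats. Filaggrin itself binds keratin filaments and is later cut into amino acids that hold water in the outer layer. The genes for these proteins sit side by side in 1 cluster, and the hair follicle uses some of them as well as the surface epidermis.

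Total RNA of skin was sequenced from mice kept under chronic restraint stress (CRS, n = 3) and from control mice (CON, n = 3), taken after 12 weeks, with 1 library per animal by the study's description. No genetic change was named for either group. Strain, sex, age, body site and stage of the hair cycle are not stated there. The deposited values were FPKM, fragment counts divided by exon length and by sequencing depth, and the depth recovered from them was 13.3 to 25.7 M fragments per library. Pearson's r of log2(FPKM + 0.1) between libraries ran from 0.783 to 0.957 over 15 pairs.

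Markers of skin were present in each library, with Krt14 of basal keratinocytes at 769 to 1198 FPKM and Krt10 of suprabasal keratinocytes at 136 to 438 FPKM. Markers of internal stratified epithelium (Krt4, Krt13 and Krt76) summed to 0.274 to 0.817 FPKM. CON replicate 1 stood apart from the other 5 libraries. Mitochondrial genes took 15.3% of its fragments against 2.5% to 4.19% elsewhere, 8 skeletal muscle markers summed to 12740.0 FPKM against 449.6 to 2551 FPKM, and 6 dermal fibroblast markers summed to 234 FPKM against 803 to 1277 FPKM. Xist stood at 2.8 FPKM in that library and at 0.0221 to 0.168 FPKM in the others, although Y-linked Eif2s3y was at 14.6 to 24.1 FPKM in all 6, so whether it holds 1 mouse is in doubt. CRS replicate 2 also stood apart, through a trend with gene length described further on.

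The start regions of the genes were compared by their sequence. RefSeq promoters (build GRCm38.p6) were at hand for 41 of the 44 genes, all but Crct1, Lce1f and Sprr2j-ps, and the 150 bases upstream of each start were searched on both strands for 4 motifs. TATAAA, the core of the TATA box, occurred in 18 of 41 windows (43.9%) against 7.57% of 32851 promoter windows of the same length. TGANTCA, a loosened form of the AP-1 core (TGACTCA or TGAGTCA), occurred in 8 of 41 (19.5%) against 4.24%. CACCC, a core that KLF proteins bind, occurred in 39.0% against 37.4%, and TTGCNNAA, a C/EBP-type core, in 4.88% against 5.46%.

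The 8 genes with TGANTCA were Lor, Ivl, Sprr1a, Sprr1b, Crnn, Rptn, Flg and Flg2. Of these, Lor and Sprr1a held TGAGTCA and Ivl held TGACTCA. The others had a different middle base, with TGAATCA in Sprr1b, Crnn, Flg and Flg2 and its reverse complement TGATTCA in Rptn. Only Lor, Sprr1a and Ivl thus held the AP-1 core itself, and its share among all promoter windows was not counted. None of the windows of 13 Lce1, 6 Lce3 and 10 Sprr2 genes held TGANTCA. The window of Sprr4, the gene with the largest log2 fold change below, held neither TATAAA nor TGANTCA and is not shown. The windows of 7 other genes described below are shown from 5′ to 3′ on the strand of the gene, ending at the base before the start. They are in lower case with matches to TATAAA or TGANTCA in capitals. The window of Lor lies at chr3:92083143-92083292 (minus strand), that of Ivl at chr3:92573736-92573885 (minus strand) and that of Sprr1a at chr3:92485882-92486031 (minus strand). Those of Crnn and Rptn lie at chr3:93144639-93144788 (plus strand) and chr3:93393549-93393698 (plus strand), and those of Lce1m and Lce3d at chr3:93019062-93019211 (minus strand) and chr3:92957240-92957389 (plus strand).
Lor: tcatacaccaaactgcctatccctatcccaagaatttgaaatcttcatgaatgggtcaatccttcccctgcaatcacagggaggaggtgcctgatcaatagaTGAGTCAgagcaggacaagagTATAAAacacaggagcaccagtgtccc
Ivl: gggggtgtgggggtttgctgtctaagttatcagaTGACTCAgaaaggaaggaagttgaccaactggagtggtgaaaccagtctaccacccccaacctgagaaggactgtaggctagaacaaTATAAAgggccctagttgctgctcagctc
Sprr1a: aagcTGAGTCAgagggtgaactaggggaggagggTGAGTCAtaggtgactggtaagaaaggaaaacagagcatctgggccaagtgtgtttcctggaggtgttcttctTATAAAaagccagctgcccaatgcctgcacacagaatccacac
Crnn: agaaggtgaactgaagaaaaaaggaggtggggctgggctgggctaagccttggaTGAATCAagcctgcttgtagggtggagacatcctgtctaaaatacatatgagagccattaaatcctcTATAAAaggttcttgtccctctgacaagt
Rptn: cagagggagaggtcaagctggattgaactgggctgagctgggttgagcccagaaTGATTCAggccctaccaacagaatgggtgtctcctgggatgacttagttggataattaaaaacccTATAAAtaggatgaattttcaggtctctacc
Lce1m: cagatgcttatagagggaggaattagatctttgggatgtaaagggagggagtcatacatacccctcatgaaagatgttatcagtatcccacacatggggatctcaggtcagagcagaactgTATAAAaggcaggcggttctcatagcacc
Lce3d: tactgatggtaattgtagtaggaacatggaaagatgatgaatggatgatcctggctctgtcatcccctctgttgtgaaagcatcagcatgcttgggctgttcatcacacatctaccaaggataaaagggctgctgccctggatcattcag
Counting the base before the start as -1, TATAAA began at -27 in Lor, at -29 in Ivl, Crnn and Lce1m, at -31 in Rptn and at -43 in Sprr1a. TGANTCA began at -48 in Lor, at -116 in Ivl and at -96 in both Crnn and Rptn, and Sprr1a held 2 matches. No match of TATAAA overlapped one of TGANTCA in these windows, and Lce3d held neither. A match describes letters in the window and does not show binding.

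In CRS skin, 39 of the 43 tested envelope genes had a higher mean log2 level than in CON skin, but no gene passed the adjusted threshold. The highest log2 fold changes were those of Sprr4, Rptn, Lce3a, Lce3f, Lce3b, Crnn and Sprr2f, in that order. The abundant Lce1 genes were near 0, among them Lce1m, Lce1c and Lce1b. The 4 genes below 0 were the weakly expressed Sprr2a3, Sprr2e, Sprr2k and Sprr2i. Taken over all 44 genes, envelope transcripts took 0.118%, 0.364% and 0.415% of fragments in CON replicates 1, 2 and 3 and 0.678%, 0.45% and 0.432% in CRS replicates 1, 2 and 3. CRS libraries were thus all above CON libraries in this share. In bulk skin, a change in the number of cells of a type and a change in RNA per cell cannot be told apart.

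Of 28389 genes tested with limma on log2(FPKM + 0.1), 0 (0%) passed a Benjamini-Hochberg adjusted p of 0.05 in either direction, and so did 0 of the 43 envelope genes, whose adjusted p was 0.9999 throughout. At an unadjusted limma p under 0.05, 3 envelope genes were higher (Sprr4, Rptn and Lce3b) and 0 were lower, beside 261 higher (0.919%) and 462 lower (1.63%) of all genes. On recovered fragments limma-voom passed 0 genes too, with 218 higher and 338 lower genes and again 3 envelope genes at unadjusted p. The median log2 fold change was 0.66 over the 43 envelope genes, against -0.20 over all genes, of which 32.2% were above 0 and 67.8% under it. In 5 envelope genes (Sprr4, Ivl, Lce3e, Crnn and Rptn) every CRS value lay above every CON value, and in 0 the reverse held, beside 1.65% and 5.19% of all genes. Lce3e had a mean of 0.0704 FPKM in CON and 0.272 FPKM in CRS, so it passed the minimum through CRS and its separation supports nothing. Lce3e stays in the counts and medians of envelope genes given here. Sprr3 was not tested, because its mean was under the minimum of 0.1 FPKM.

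Markers of other cell types differed between the groups as well, and none of these lists had a gene past adjustment. The hair shaft list (6 tested keratins) had a median log2 fold change of 1.21 with 5 of 6 above 0, and its summed FPKM was 1368 to 4416 in CON and 4462 to 8120.0 in CRS, lowest in CON replicate 1. The stress keratinocyte and sebocyte lists had medians of 0.64 and 0.63, with 6 of 6 and 6 of 7 above 0. Dermal fibroblast, T cell, macrophage, basal keratinocyte and adipocyte lists had medians of 0.55, 0.35, 0.18, 0.12 and -0.17. The melanocyte and endothelial lists, of 4 genes each, were all below 0, with medians of -0.61 and -0.79. Melanocyte markers summed to 211.9 to 231.2 FPKM in CON and 138.1 to 158.7 FPKM in CRS. The 8 skeletal muscle markers were all below 0, with a median of -2.00 and summed FPKM of 1439 to 12740.0 in CON and 449.6 to 2481 in CRS. Their part in the envelope genes' differences was not tested.

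**Figure D1:**
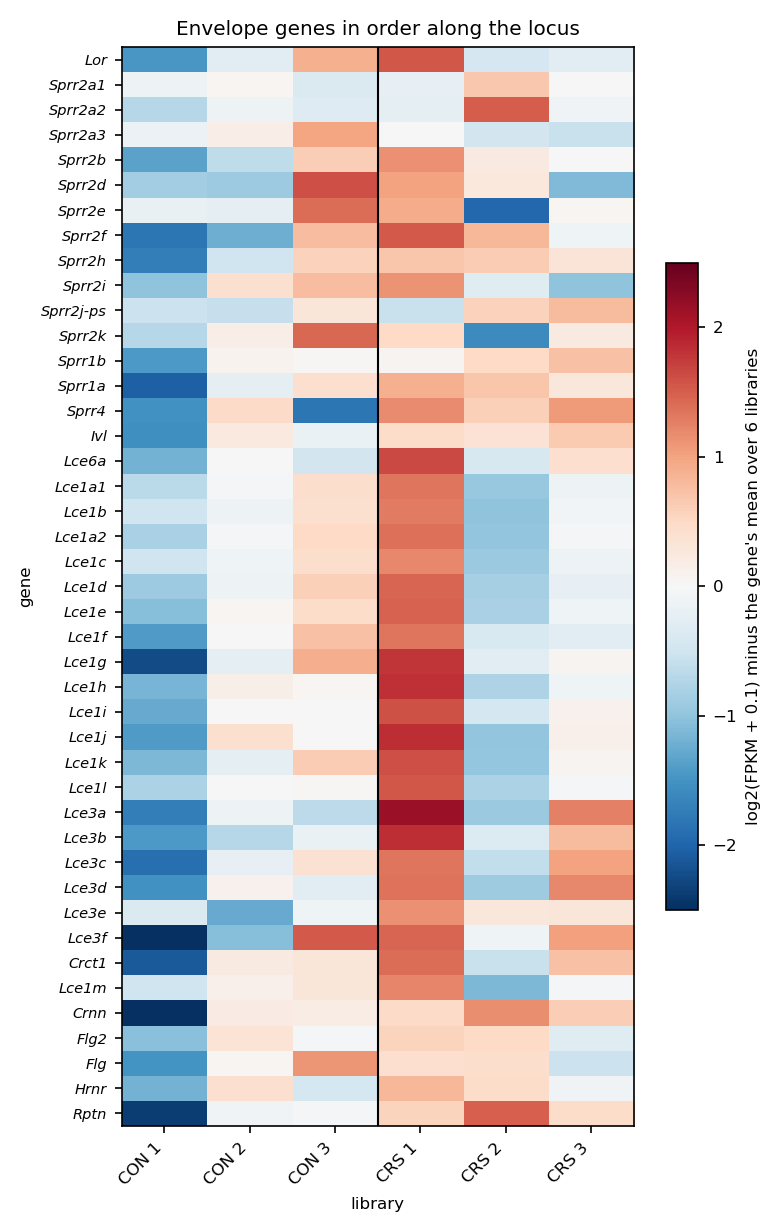
Each row is 1 of the 43 tested genes in order along the locus and each column 1 library, with the colour giving log2(FPKM + 0.1) minus the gene's mean over the 6 libraries. CON replicate 1 was the lowest library for 30 genes and CRS replicate 1 the highest for 30.

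CON replicate 1 held the lowest value of 30 genes and CRS replicate 1 the highest value of 30. CRS replicate 2 was the lowest library for 7 genes and the highest for 4. Between these extremes, CON replicates 2 and 3 and CRS replicate 3 together were the lowest for the other 6.

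**Figure D2:**
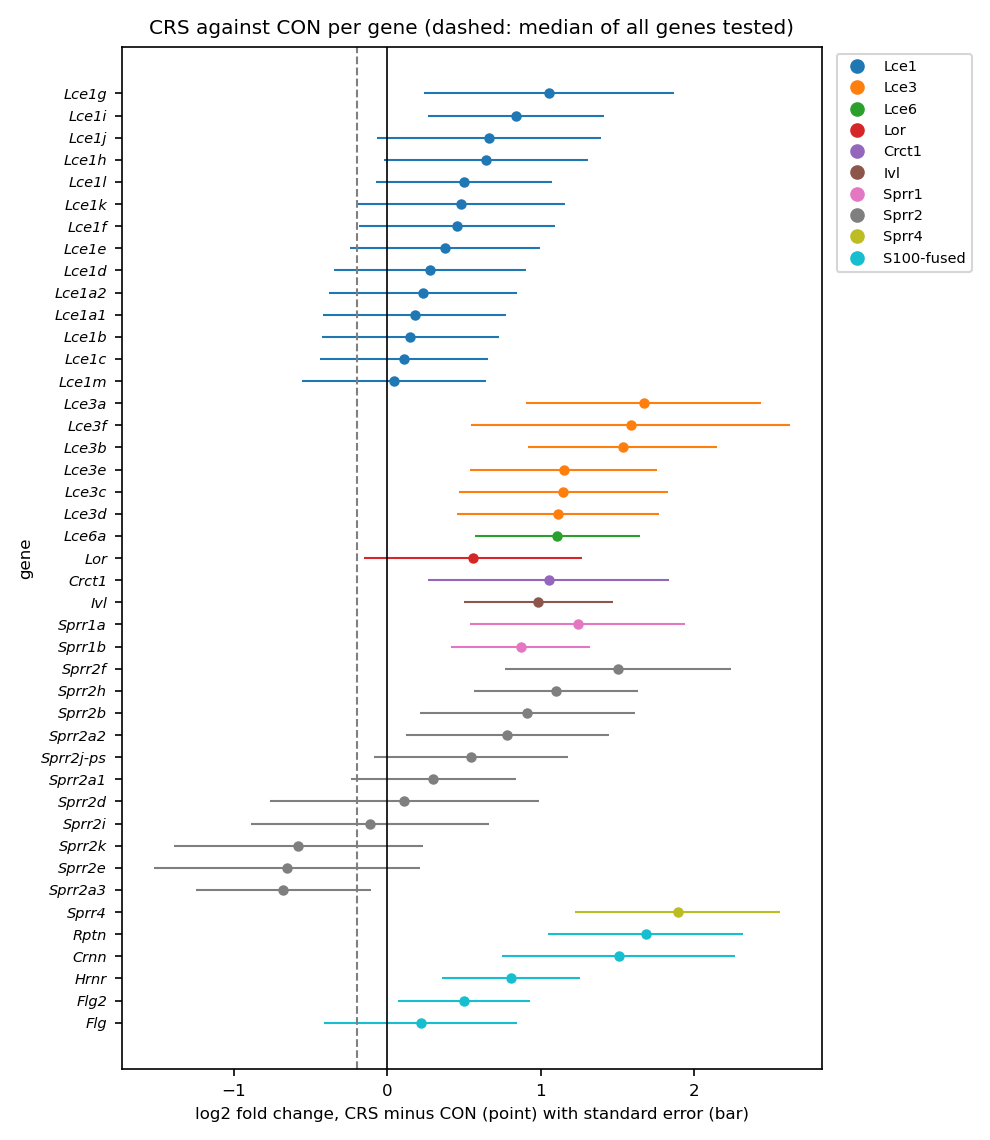
The log2 fold change of each gene (point, CRS minus CON, on the log2(FPKM + 0.1) scale) is drawn with its standard error (bar), ordered by subfamily, with the median of all genes tested dashed. Sprr4 at 1.89 and Rptn at 1.68 were the highest, and the 4 genes below 0 were all Sprr2 genes.

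Among the single genes that form the scaffold and bulk of the envelope, involucrin had separate groups and loricrin did not. Ivl, the early scaffold, stood at 41.5, 142 and 107 FPKM in CON replicates 1, 2 and 3, and 165, 155 and 191 FPKM in CRS replicates 1, 2 and 3. All 3 CRS libraries were above all 3 CON libraries. Group means were 97.0 ± 51.2 FPKM for CON against 171 ± 18.2 FPKM for CRS (SD, n = 3), with a log2 fold change of 0.98 (SE 0.48), a limma unadjusted p of 0.0744 and an exact permutation p of 0.1, the smallest that 3 against 3 allows.

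Lor, the main mass of the envelope, stood at 40.2, 91.6 and 206 FPKM in CON replicates 1, 2 and 3, and 324, 82.3 and 90.8 FPKM in CRS replicates 1, 2 and 3. CRS replicate 1 was the highest library, but CRS replicates 2 and 3 lay below CON replicates 2 and 3, so the groups overlapped. Group means were 113 ± 84.9 FPKM for CON against 166 ± 137 FPKM for CRS (SD, n = 3), with a log2 fold change of 0.56 (SE 0.71) and an exact permutation p of 0.7. Crct1, a cysteine-rich gene of the LCE stretch of the cluster, stood at 113, 568 and 602 FPKM in CON replicates 1, 2 and 3, and 1284, 332 and 809 FPKM in CRS replicates 1, 2 and 3. Its groups also overlapped, with CRS replicate 2 below CON replicates 2 and 3, with a log2 fold change of 1.05 (SE 0.79) and an exact permutation p of 0.4.

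The 14 Lce1 genes, which code for late envelope proteins of surface epidermis, had small mean differences between the groups and a wide spread between libraries. All 14 had log2 fold changes above 0, from 0.045 for Lce1m to 1.05 for Lce1g, with a median of 0.41. Summed over the 14 genes, the level was 506, 833 and 1103 FPKM in CON replicates 1, 2 and 3, and 2144, 442 and 793 FPKM in CRS replicates 1, 2 and 3. CRS replicates 1 and 2 were thus the highest and the lowest of the 6 libraries, and the groups overlapped.

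Lce1m, the most abundant of them, stood at 149, 232 and 262 FPKM in CON replicates 1, 2 and 3, and 491, 97.1 and 207 FPKM in CRS replicates 1, 2 and 3. Its log2 fold change was 0.045 (SE 0.60) with an exact permutation p of 0.9. Lce1a1, Lce1b and Lce1a2 followed in abundance, with means over the 6 libraries of 143, 109 and 105 FPKM and log2 fold changes of 0.18, 0.15 and 0.23. The other 10 Lce1 genes averaged 18.3 to 85.1 FPKM. Lce1i and Lce1g had the lowest limma p of the subfamily, at 0.179 and 0.231 before adjustment. Lce1i stood at 11.7, 28.1 and 28.6 FPKM (CON) against 85.5, 20.8 and 30.4 FPKM (CRS). Lce1g stood at 2.92, 11.9 and 26.8 FPKM (CON) against 49.3, 11.7 and 14.8 FPKM (CRS), so that CRS replicate 1 was 16.9 times CON replicate 1.

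Within the Lce1 sum the make-up stayed alike while the sum varied. Lce1m made 22% to 29.4% of it in the 6 libraries, Lce1a1 14.4% to 15.4%, Lce1a2 10.1% to 11.4% and Lce1b 10.5% to 13.4%. Lce1g ranged most in proportion, from 0.577% in CON replicate 1 to 2.65% in CRS replicate 2. Less abundant genes such as Lce1f (2.6% to 6.2%), Lce1i (2.3% to 4.7%) and Lce1j (1.25% to 2.9%) also varied widely in share. Up to 27.1% of the 50-base windows of an Lce1 transcript also occur in another gene's transcripts, and up to 4.9% of the 100-base windows, so fragments could be shared among these genes depending on how the counting treated them, which was not given.

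**Figure D3:**
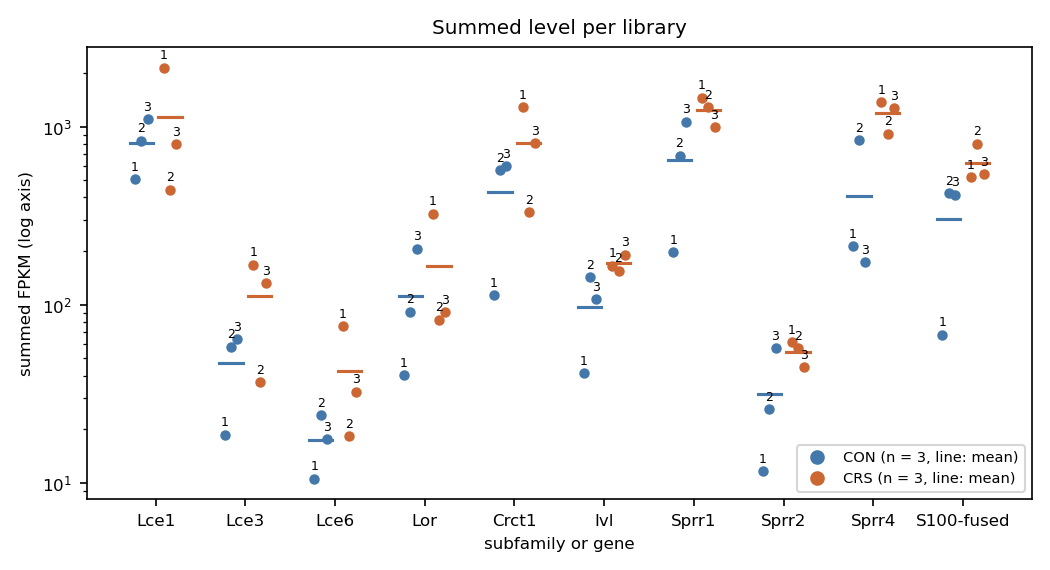
The summed FPKM of each subfamily or single gene is drawn per library on a log axis, with the replicate number at each point and the group mean as a line. The Lce1 sum of CRS replicates 1 and 2 encloses all others, whereas Ivl, Sprr4 and the S100-fused sum have all 3 CRS points above the CON points. The S100-fused sum is mostly Crnn, and Flg, Flg2 and Hrnr overlapped between the groups.

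The Lce3 genes summed to far less than the Lce1 genes beside them. Lce3d and Lce3c were nonetheless above the weakest Lce1 genes in mean FPKM. The Lce3 log2 fold changes were all above the highest Lce1 value, a difference that was not tested. For Lce3e and Lce3f, the weakest Lce3 genes, that order rested on the pseudocount. With a pseudocount of 1 they came to 0.25 and 0.51, below Lce1g at 0.95. The other Lce3 genes stayed above Lce1g. LCE3 genes are known in human skin for their induction when the barrier is broken. All 6 mouse Lce3 genes had log2 fold changes above 0, from 1.11 for Lce3d to 1.67 for Lce3a, with a median of 1.34. This count and median include Lce3e, which passed the minimum through CRS. The Lce3 sum was 18.7, 58.2 and 63.9 FPKM in CON replicates 1, 2 and 3, and 168, 36.6 and 132 FPKM in CRS replicates 1, 2 and 3. CRS replicates 1 and 3 were above every CON library and CRS replicate 2 was below CON replicates 2 and 3.

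Lce3d, the most abundant, stood at 9.59, 29.7 and 23.0 FPKM in CON replicates 1, 2 and 3, and 70.6, 14.9 and 63.5 FPKM in CRS replicates 1, 2 and 3, with a log2 fold change of 1.11 (SE 0.66) and an exact permutation p of 0.3. Lce3c stood at 7.09, 23.0 and 34.4 FPKM (CON) against 67.6, 17.2 and 53.1 FPKM (CRS), with a log2 fold change of 1.15 (SE 0.68). Both had CRS replicates 1 and 3 on top. Lce3b stood at 0.659, 1.16 and 1.74 FPKM (CON) against 7.31, 1.52 and 3.46 FPKM (CRS), and its log2 fold change was 1.53 (SE 0.62) with a limma unadjusted p of 0.0360 and an exact permutation p of 0.2. CRS replicate 2 lay between CON replicates 2 and 3, so these groups overlapped.

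Lce3a stood at 1.25, 4.02 and 2.74 FPKM (CON) against 19.9, 2.27 and 10.7 FPKM (CRS), with a log2 fold change of 1.67 (SE 0.77) and a limma unadjusted p of 0.0595. Lce3e had groups that did not overlap, but at 0 to 0.428 FPKM it rested on at most 5 fragments per library. Lce3f stood at 0 to 1.97 FPKM. Where Lce3e, Lce3f or a low Sprr2 gene was at 0, up to 3 fragments could be present, or 0.18 to 0.26 FPKM. Between 24.1% and 43% of the 100-base windows of Lce3c, Lce3d, Lce3e and Lce3f occur in another gene's transcripts, so the split among these 4 is uncertain. Lce6a, a late envelope gene apart from both groups, stood at 10.6, 23.9 and 17.6 FPKM in CON replicates 1, 2 and 3, and 75.8, 18.3 and 32.5 FPKM in CRS replicates 1, 2 and 3. CRS replicates 1 and 3 were its highest libraries and CRS replicate 2 lay inside the CON range, with a log2 fold change of 1.11 (SE 0.54).

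Of the small proline-rich genes that bridge the envelope, Sprr1a and Sprr4 were abundant and Sprr3 was all but absent. Sprr4 had the largest log2 fold change of the 43 genes. It stood at 212, 841 and 174 FPKM in CON replicates 1, 2 and 3, and 1369, 914 and 1272 FPKM in CRS replicates 1, 2 and 3. Every CRS library was above every CON library, although CON replicate 2 and CRS replicate 2 were near each other. Group means were 409 ± 374 FPKM for CON against 1185 ± 239.8 FPKM for CRS (SD, n = 3), with a log2 fold change of 1.89 (SE 0.67), a limma unadjusted p of 0.0208 and an exact permutation p of 0.1. Its annotated model is the shortest of all the members at 231 bases.

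Sprr1a, which injured or regenerating epidermis also uses, stood at 187, 658 and 1039.7 FPKM in CON replicates 1, 2 and 3, and 1425, 1252 and 944 FPKM in CRS replicates 1, 2 and 3. It was the most abundant of the 44 genes, with a mean of 918 FPKM over the 6 libraries. CRS replicates 1 and 2 were on top and CON replicate 3 lay above CRS replicate 3, so the groups overlapped. CRS minus CON came to 1.24 (SE 0.70) on the log2 scale, with an exact permutation p of 0.2. Sprr1b stood far lower, at 9.75, 28.3 and 27.1 FPKM (CON) against 27.9, 37.3 and 44.1 FPKM (CRS), with a log2 fold change of 0.87 (SE 0.45).

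Sprr3, typical of internal stratified epithelia such as the oesophagus, was at 0 in 5 libraries and at 0.17 FPKM, or 4 fragments, in CRS replicate 1. A count of 0 allows up to 3 fragments, which is 0.0954 to 0.185 FPKM in those 5 libraries, for counting error alone. Its near absence stands beside that of the internal epithelium keratins given above.

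The 11 Sprr2 genes divided into Sprr2h, Sprr2f and 9 genes at very low levels. In this subfamily 7 genes had log2 fold changes above 0 and 4 below, with a median of 0.30. Sprr2h carried most of the subfamily, at 9.99, 23.5 and 49.4 FPKM in CON replicates 1, 2 and 3, and 53.8, 51.9 and 41.4 FPKM in CRS replicates 1, 2 and 3. All CRS libraries lay above CON replicates 1 and 2 and CON replicate 3 lay among them, with a log2 fold change of 1.10 (SE 0.53) and a limma unadjusted p of 0.0713. Sprr2f stood at 0.347, 0.577 and 2.59 FPKM (CON) against 4.44, 2.68 and 1.37 FPKM (CRS), with a log2 fold change of 1.502 (SE 0.73) and an exact permutation p of 0.2.

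The other 9 Sprr2 genes had means of 0.134 to 0.507 FPKM and 0 to 56 fragments per library. Sprr2d stood at 0.155, 0.147 and 1.33 FPKM (CON) against 0.840, 0.457 and 0.117 FPKM (CRS), with a log2 fold change of 0.11 (SE 0.88). Sprr2a1 stood at 0.370, 0.434 and 0.301 FPKM (CON) against 0.346, 0.725 and 0.410 FPKM (CRS), with a log2 fold change of 0.30 (SE 0.54). Neither showed separate groups, and in Sprr2d the mean FPKM was higher in CON although the mean log2 level was higher in CRS. The genes below 0 with the lowest p were Sprr2a3 at 0.330, 0.435 and 0.835 FPKM (CON) against 0.379, 0.243 and 0.220 FPKM (CRS) and Sprr2e at 0.245, 0.233 and 0.930 FPKM (CON) against 0.643, 0 and 0.307 FPKM (CRS). Their log2 fold changes were -0.68 (SE 0.57) and -0.66 (SE 0.87). Sprr2a1, Sprr2a2 and Sprr2a3 are near copies, with 92.5%, 92.8% and 36.2% of their 100-base windows in other genes' transcripts, so their separate values are uncertain. The remaining Sprr2a2, Sprr2b, Sprr2i, Sprr2j-ps and Sprr2k had log2 fold changes of -0.58 to 0.91.

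Among the S100-fused type genes, cornulin and repetin had separate groups and the filaggrins and hornerin did not. All 5 had log2 fold changes above 0, with a median of 0.81. Crnn, cornulin, stood at 52.2, 373 and 368 FPKM in CON replicates 1, 2 and 3, and 454, 728 and 499 FPKM in CRS replicates 1, 2 and 3. CRS replicate 2 was the highest and CON replicate 1 the lowest by far, and no values of the groups overlapped. Group means were 264 ± 184 FPKM for CON against 560.2 ± 147 FPKM for CRS (SD, n = 3), with a log2 fold change of 1.51 (SE 0.76), a limma unadjusted p of 0.0812 and an exact permutation p of 0.1.

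Rptn, repetin, which mouse epidermis and hair follicle use, stood at 2.04, 10.4 and 10.7 FPKM in CON replicates 1, 2 and 3, and 16.4, 31.5 and 15.3 FPKM in CRS replicates 1, 2 and 3. The order of libraries was close to that of Crnn, with CRS replicate 2 again on top. Group means were 7.70 ± 4.90 FPKM for CON against 21.1 ± 9.06 FPKM for CRS (SD, n = 3), with a log2 fold change of 1.68 (SE 0.64), a limma unadjusted p of 0.0279 and an exact permutation p of 0.1. Inner root sheath markers, 7 genes of the hair follicle (Krt25, Krt27, Krt28, Krt71, Krt72, Krt73 and Tchh, the last also in a list further on), summed to 2873, 10070.0 and 12710.0 FPKM in CON replicates 1, 2 and 3 and to 12640.0, 18350.0 and 11540.0 FPKM in CRS replicates 1, 2 and 3. All 7 had log2 fold changes above 0, with CRS replicate 2 highest in the sum and CON replicate 1 lowest, as in Crnn and Rptn. Their part in these differences was not tested.

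Flg, filaggrin, stood at 2.41, 7.15 and 15.1 FPKM in CON replicates 1, 2 and 3, and 9.33, 9.43 and 4.73 FPKM in CRS replicates 1, 2 and 3. CON replicate 3 was its highest library. Group means were 8.22 ± 6.41 FPKM for CON against 7.83 ± 2.68 FPKM for CRS (SD, n = 3), with a log2 fold change of 0.22 (SE 0.63) and an exact permutation p of 1, so the linear mean was lower in CRS and the log2 mean higher. Flg2, the filaggrin relative, stood at 6.14, 16.2 and 12.3 FPKM (CON) against 18.8, 18.2 and 10.3 FPKM (CRS), with a log2 fold change of 0.50 (SE 0.43). Hrnr, hornerin, stood at 5.18, 15.8 and 8.75 FPKM (CON) against 21.3, 16.4 and 11.2 FPKM (CRS), with a log2 fold change of 0.81 (SE 0.45) and a limma unadjusted p of 0.111. In Flg2 and Hrnr, CRS replicate 3 lay within the CON range and CRS replicates 1 and 2 above it. The repeats of these long genes fill 55.5% to 71.3% of their own 100-base windows, which affects fragments that map to several places within 1 gene.

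The envelope genes did not vary as a block. In CRS replicate 2 the Lce1 sum was the lowest of the 6 while Crnn and Rptn were at their highest. The ratio of Crnn to the Lce1 sum was 0.103, 0.448 and 0.334 in CON replicates 1, 2 and 3 and 0.212, 1.65 and 0.629 in CRS replicates 1, 2 and 3. Sprr1a over the Lce1 sum was likewise highest in CRS replicate 2, at 2.83 against 0.369 to 1.19 elsewhere. Ivl over the Lce1 sum was 0.352 there against 0.0772 to 0.241. The Lce3 sum over the Lce1 sum was highest in CRS replicate 3, at 0.167 against 0.0369 to 0.083. These ratios were chosen after the values had been seen.

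The suprabasal keratin Krt10 gave another yardstick. Krt10 itself stood at 136, 226 and 299 FPKM (CON) against 407, 438 and 179 FPKM (CRS), with a log2 fold change of 0.60 (SE 0.51). The Lce1 sum divided by Krt10 was 3.73, 3.69 and 3.69 in CON replicates 1, 2 and 3, and 5.27, 1.008 and 4.44 in CRS replicates 1, 2 and 3. By Krt10 the 3 CON libraries were thus nearly equal and the CRS libraries lay on both sides of them. Divided by the suprabasal keratin Krt1, the Lce1 sum was 17.2, 23.5 and 23.8 in CON and 34.9, 3.30 and 31.5 in CRS. The CON libraries were less alike by that yardstick, and the CRS libraries again lay on both sides. The Crnn to Krt10 ratio was 0.385, 1.65 and 1.23 in CON and 1.11, 1.66 and 2.79 in CRS, which overlapped. The 6 suprabasal markers, some of them in the partner list below, summed to 785 to 1572 FPKM in CON and 1448 to 2964 FPKM in CRS, and 6 of 6 had log2 fold changes above 0. Their part in the envelope genes' differences was not tested.

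All 3 CRS libraries had a trend with gene length across genes of at least 1 FPKM, and that of CRS replicate 2 ran opposite to the others. Genes of at least 500 and under 1000 bases had a median deviation from their own mean of -0.88 (log2) in CRS replicate 2 and of 0.56 in CRS replicate 1, and genes of 4000 bases and over had 0.63 and -0.41. In CRS replicate 3 the values were 0.28 and -0.54. The Lce1 models are 647 to 949 bases long and had a median deviation of -0.88 in CRS replicate 2, like genes of that length as a whole, and of 1.47 in CRS replicate 1. Sprr1a and Sprr1b, of 806 and 830 bases, had 0.59 in CRS replicate 2, above the -0.88 of genes of their length. Sprr4, at 231 bases, had 0.59 there, where genes under 500 bases had -1.48.

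With each library's trend over length removed, an alternative added after seeing the data, the Lce1 median in CRS replicate 2 moved from -0.88 to 0.08. In CRS replicate 1 it was 0.97 and in CON replicate 1 -0.96. Crnn, Rptn and Sprr1a in CRS replicate 2 came from 1.16, 1.501 and 0.69 to 1.35, 1.11 and 1.55. The longer Flg, Flg2 and Hrnr turned there from 0.44, 0.51 and 0.46 to -0.38, -0.32 and -0.29. Under this correction 40 of 43 envelope genes were above 0, their median was 0.82 beside 0.02 for all genes, and 9 were under an unadjusted limma p of 0.05, but again 0 passed adjustment. The low Lce1 values of CRS replicate 2 and its length trend moved together, and what share of the one belongs to the other was not tested.

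**Figure D4:**
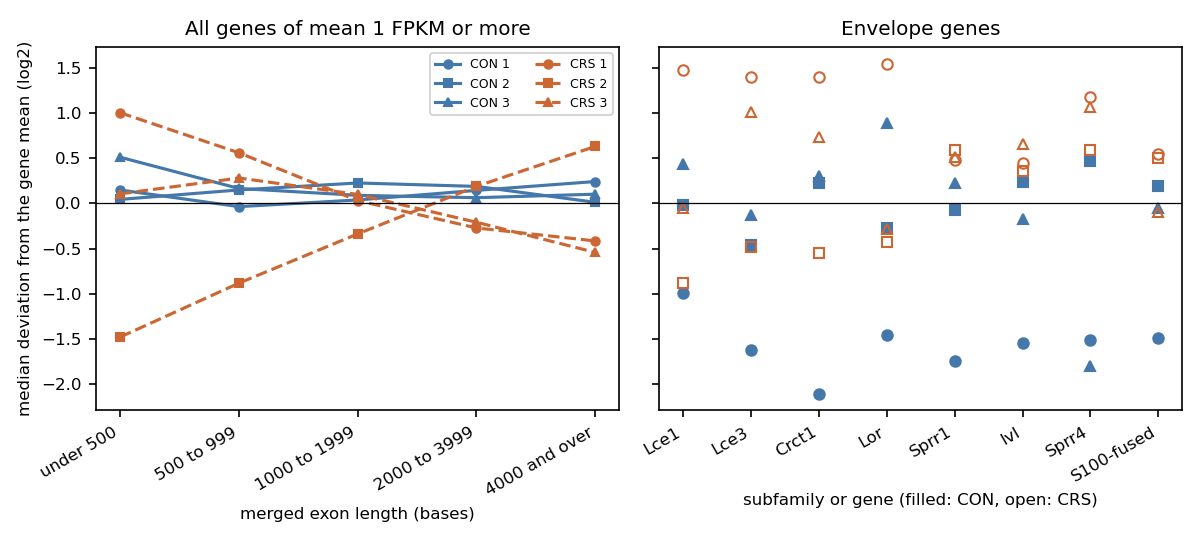
At left, the median deviation of genes from their own mean (log2) is drawn by merged exon length for each library, over genes averaging 1 FPKM or more. At right, the same measure is given for the envelope subfamilies and single genes (filled, CON; open, CRS), with Lce1 at -0.88 and Sprr1 at 0.59 in CRS replicate 2.

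Genes that join and process envelope proteins had mean log2 differences mostly above 0. Regulators of the complex were mostly below 0, as were 67.8% of all genes tested. Of 29 genes for cross-linking, adhesion and lipids of the envelope, 27 were tested (all but Calml5 and Pi3) and 27 had log2 fold changes above 0, with a median of 0.67, 3 at an unadjusted limma p under 0.05 and 0 past adjustment. These 3 were Cst6, the inhibitor cystatin M/E, Tgm3, a transglutaminase, and Tgm5, another. Of all genes tested, 0.919% were higher at such a p. Cst6 stood at 82.1, 258 and 77.6 FPKM (CON) against 658, 224 and 446 FPKM (CRS), with a log2 fold change of 1.77 (SE 0.60). Tgm3 stood at 11.4, 30.2 and 15.4 FPKM (CON) against 29.3, 59.5 and 38.5 FPKM (CRS), with a log2 fold change of 1.22 (SE 0.44). Tgm5 stood at 2.53, 5.55 and 3.601 FPKM (CON) against 7.47, 7.82 and 5.81 FPKM (CRS), with a log2 fold change of 0.90 (SE 0.37), and of these 3 it alone had groups that did not overlap. The most abundant were Krtdap, Dmkn and Calm4, with log2 fold changes of 0.52, 0.90 and 0.30.

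Of 16 genes for filaggrin processing and desquamation, 13 were above 0 and 3 below, with a median of 0.62 and 0 at an unadjusted p under 0.05. Asprv1, the protease that cuts profilaggrin in mouse skin, had the lowest p and the highest level, at 171, 482 and 241 FPKM (CON) against 566, 415 and 670.2 FPKM (CRS), with a log2 fold change of 0.99 (SE 0.51). Prss8 and Padi1 followed by p, with log2 fold changes of 0.71 and 1.20. Klk7, a desquamation protease, and Padi3 followed by level, with log2 fold changes of 0.45 and 0.63.

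The 28 transcription factors and other regulators of the complex had a median of -0.26, near that of all genes, with 7 above 0 and 21 below. Cebpb, a C/EBP factor of keratinocyte differentiation, stood at 23.5, 12.6 and 42.2 FPKM (CON) against 12.1, 4.83 and 10.9 FPKM (CRS), with a log2 fold change of -1.42 (SE 0.52) and a limma unadjusted p of 0.0244. Every CRS value was below every CON value in Cebpb and also in Nfe2l2, which came to -0.52 (SE 0.31) on the log2 scale. These were 2 of the 28 regulators, and 5.19% of all genes tested were separated in this way. Pou3f1 came to -0.89 (SE 0.40). The most abundant regulators were Hopx, Klf4, needed for barrier formation in the mouse, and Barx2, with log2 fold changes of -0.31, 0.05 and -0.21.

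Of the 21 other genes of the complex, 20 were tested (all but Lelp1), 16 were above 0 and 4 below, and the median was 0.43. S100a5 had the lowest p but stood at no more than 0.54 FPKM. S100a7a stood at 28.4, 115 and 100.9 FPKM (CON) against 214, 114 and 195 FPKM (CRS), with a log2 fold change of 1.28 (SE 0.57). The hair follicle proteins Tchh and Tchhl1, which are S100-fused like filaggrin, had groups that did not overlap, with log2 fold changes of 1.11 (SE 0.85) and 1.25 (SE 0.66). Of all genes tested, 1.65% had every CRS value above every CON value. Prr9 and S100a6, also among the 3 most abundant, had log2 fold changes of 0.92 and 0.20. No gene of these 4 lists passed an adjusted limma p of 0.05.

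How far the direction rested on single libraries differed by subfamily. Without CON replicate 1, 28 of 43 envelope genes were above 0 and the median was 0.26. Without CRS replicate 1, 25 were above 0 and the median was 0.42. The Lce1 median was then -0.06 and -0.24, and Lor came to -0.03 and -0.08. Without CRS replicate 2, 42 genes were above 0 and the Lce1 median was 0.83. With both CON replicate 1 and CRS replicate 2 left out, 36 were above 0 and the median of all 43 was 0.47. Lce3 stayed between 0.92 and 1.93, Sprr4 between 1.47 and 2.60, Ivl between 0.46 and 1.35 and Crnn between 0.57 and 1.98 over the 6 fits that each left out 1 library. Rptn ran from 0.91 to 2.08, Crct1 from 0.26 to 1.59, Sprr1a from 0.53 to 1.76, Sprr2h from 0.51 to 1.66 and Lce1g from 0.19 to 1.77. The lowest values of Ivl, Crnn, Rptn, Crct1, Sprr1a, Sprr2h and Lce1g were all those without CON replicate 1. With both CON replicate 1 and CRS replicate 2 left out, Crnn came to 0.36 and Rptn to 0.58.

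**Figure D5:**
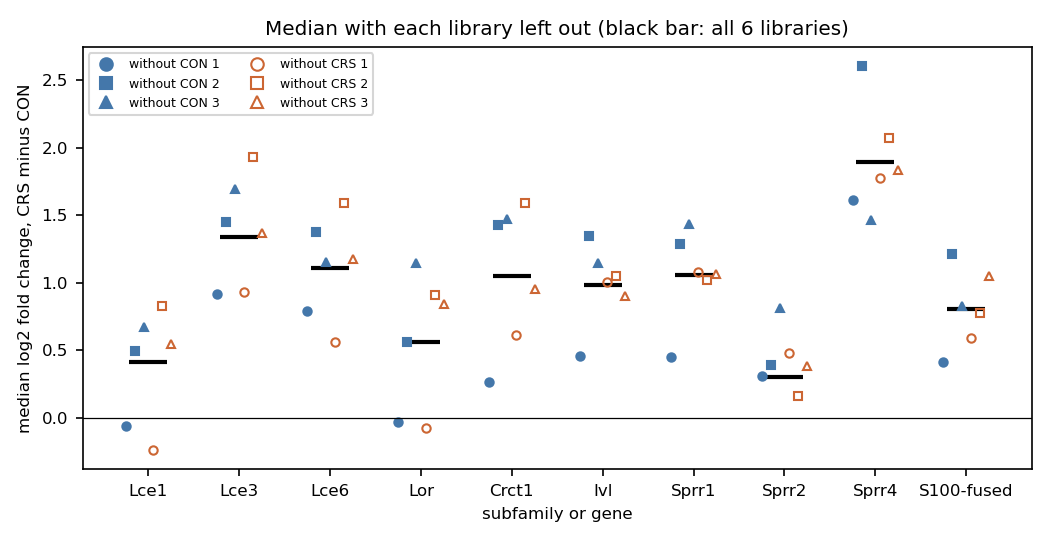
The median log2 fold change of each subfamily or single gene is drawn for all 6 libraries (black bar) and with each library left out in turn (points; filled for a CON library, open for a CRS library). Lce1 and Lor cross 0 when CON replicate 1 or CRS replicate 1 is left out, and the medians of all the others drawn do not for any library.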

How the data were processed

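Libraries for Illumina sequencing were made from 1 µg of Trizol-extracted total RNA of 6 mouse skin samples, per the labels' protocols. The authors deposited FPKM values, 1 file per library. HISAT2 and the build GRCm39 are named, per the submitters' processing notes. How fragments were counted, the annotation, strand, read length and treatment of fragments that map to several places are not given in the sources used here. GENCODE M21, which annotates GRCm38, held 54079 of 54146 IDs and supplied their symbols, gene types and merged exon lengths.

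FPKM times exon length gave whole multiples of 1 step, within 0.05 for 98.1% to 98.3% of values up to 100 fragments, and so a depth per library. The 28389 genes averaging 0.1 FPKM or more entered the test as log2(FPKM + 0.1), a scale that understates the fold changes of weakly expressed genes. The test was that of limma 3.58.1 in R 4.3.3, two-sided, with a mean-variance trend, no covariates and Benjamini-Hochberg adjustment over all genes tested at 0.05. Exact two-sided permutation tests of 3 against 3 values cannot go below 0.1. P-values measure the spread between these samples. The procedure was tested on simulated data. Counting limits cover counting error alone.

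Genes named were all single genes, the 4 most abundant and the 2 of lowest p in each direction per subfamily, and the 3 of lowest p and the 3 most abundant per partner list. Others named were chosen after their values were seen. The members, lists and tests were chosen with earlier results of these data known. RefSeq promoters were of build GRCm38.p6. Alternatives comprised pseudocounts, filters, scalings, weights, voom, a replicate block and left-out libraries.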

Additional observations from a re-analysis of the deposited data

How the results depend on the processing

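Under each alternative, 0 genes, 0 envelope genes and 0 partner genes passed an adjusted p of 0.05, and in the fit as reported 0 passed 0.1. With array weights, Lce3a, Lce3b and Lce3d (adjusted p = 0.0898) and Sprr4 (0.0911) were under 0.1, as were the partners Cst6 and Pou3f1 (0.0898), Tgm3 (0.0947), S100a7a (0.0994) and Asprv1 (0.0998). The share of all genes under 0.1 is not given here. At an unadjusted limma p under 0.05, 1109 of all 28389 genes were higher in that fit and 6525 lower. Its weight was 5.42 for CRS replicate 3 and 0.162 for CRS replicate 2, so it rested largely on CRS replicate 3. Median-ratio, upper-quartile and quantile scaling moved the median of all genes from -0.20 to -0.01, -0.01 and -0.02, and that of the envelope genes to 0.86, 0.86 and 0.79. With the replicate block, 39 of 43 envelope genes were above 0, 2 were under an unadjusted p of 0.05 and the smallest adjusted p was 1. Deviations of same-numbered libraries correlated at -0.121, 0.062 and 0.087, and those of differently numbered libraries at -0.292 to 0.301. These values show no pairing by number, but so few of them cannot exclude it.

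Envelope genes above 0 numbered 25 to 42 when 1 library was left out. The Sprr2 median was 1.30 with a minimum mean of 1 FPKM, where Sprr2f and Sprr2h alone remained. Sprr2d came to -0.014 with a pseudocount of 1. Lce1m came to -0.14 with quantile normalization and, without mitochondrial and muscle genes, to -0.043, and Klf4 to -0.042. Barx2 came to 0.006 with median-ratio and 0.005 with upper-quartile scaling. Array weights gave -0.86 for Sprr2d, -0.016 for Flg2, -0.42 for Flg, 0.12 for Hopx and -0.13 for Klf4. Without both CON replicate 1 and CRS replicate 2, Sprr2d was -0.40, Flg2 -0.025, Flg -0.64, Klf4 -0.058, Padi1 -0.17 and Padi3 -0.14. Sprr2i was 0.055 with the length correction, which was chosen after seeing the data.

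Leaving out 1 library gave ranges across 0 for 25 named genes. They were -0.44 to 0.69 for Lce1a1, -0.39 to 0.78 for Lce1a2, -0.47 to 0.69 for Lce1b, -0.47 to 0.60 for Lce1c, -0.38 to 0.77 for Lce1d, -0.27 to 0.87 for Lce1e and -0.14 to 0.93 for Lce1f. Others were -0.11 to 1.19 for Lce1h, -0.10 to 1.32 for Lce1j, -0.20 to 1.08 for Lce1k, -0.15 to 1.02 for Lce1l, -0.55 to 0.62 for Lce1m, -0.077 to 1.15 for Lor and -0.47 to 0.83 for Flg. Sprr2d ran from -0.37 to 0.94, Sprr2e from -1.28 to 0.16, Sprr2i from -0.71 to 0.36 and Sprr2k from -1.08 to 0.069. Among partners, Barx2 ran from -0.43 to 0.08, Calm4 from -0.11 to 0.60, Hopx from -0.62 to 0.11, Klf4 from -0.22 to 0.47, Klk7 from -0.003 to 0.74, Krtdap from -0.11 to 1.23 and S100a6 from -0.23 to 0.88. Prr9 came from 0.92 to 0.003 without CON replicate 1. The cause of these changes was not tested. Sprr2 genes at 0 to 56 fragments per library are limited by depth.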
